A study of Homo sapiens with 12 samples.

Results

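Genes of the WNT pathway were followed in HCT116 and SW480 cells, both of them lines from human colorectal cancers, with and without overexpression of USP51, a protease that takes ubiquitin off other proteins. The set holds 48 genes, chosen by name as WNT ligands, their secretion factors, receptors, signal transducers, destruction complex members, TCF factors, corepressors and feedback targets, and all 48 were among the 17818 genes of the deposited table. There were 4 groups of 3 libraries: HCT116 with USP51 overexpressed (USP51-OE), HCT116 with vector (genotype NC), SW480 with USP51 overexpressed, and SW480 with vector (NC). All were grown in DMEM with serum, and the sources used here do not say whether a group was 1 clone or a pool. SW480 carries a mutant APC gene and HCT116 a mutant CTNNB1 gene, in all groups of the line.

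In the absence of a WNT signal, a destruction complex of AXIN, APC, GSK3 and casein kinase marks beta-catenin for degradation. A WNT ligand that binds a Frizzled receptor and LRP5 or LRP6 stops this through Dishevelled, so that beta-catenin accumulates and works with TCF and LEF factors on target genes. Several of those targets encode inhibitors of the pathway itself and are known as feedback targets. The pathway maintains the stem cells of the colon crypt, and most colorectal cancers carry a mutation that keeps it active without ligand.

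Every value is an authors' mean of a group, since the column codes of single libraries could be tied to no label. There is therefore no n, SD or p-value, and no difference was set against replicate error. The mean columns carry the letters E and C after the cell line, which were taken to stand for USP51 overexpression and control, and every direction rests on that reading. Levels are in TPM, scaled to transcript length and to a common total, so that genes can be compared. A log2 difference is log2((TPM of the first group + 1) / (TPM of the second + 1)), which understates differences at low levels. A gene was measured in a comparison if either group reached 1 TPM. It was called if the groups differed by 1.5-fold or more on this scale (2-fold between the lines), which is a limit of size without a test. Ratios are of estimated counts per total count, with exact 95% intervals that treat a mean as 1 library and cover counting error only.

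The means summed to between 15506686 and 15920306 estimated counts per group. USP51 itself stood at 40.8 TPM with USP51 and 0 TPM with the control vector in HCT116 and at 25.7 TPM with USP51 and 0.513 TPM with the control vector in SW480. The epithelial markers EPCAM, KRT8, KRT18 and KRT19 were at 382 TPM or more in every group, while CDX1 and LGALS4 were below 1 TPM in all groups and VIL1 in both HCT116 groups. Summed levels of 6 fibroblast, 5 immune and 3 endothelial markers lay between 0.120 and 15.4 TPM per list and group. The highest of these sums was that of the fibroblast list in HCT116 with USP51, with COL1A1 at 15.1 TPM with USP51 and 9.95 TPM with the control vector and the other 5 below 1 TPM. Their part in the results was not tested.

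**Figure D1:**
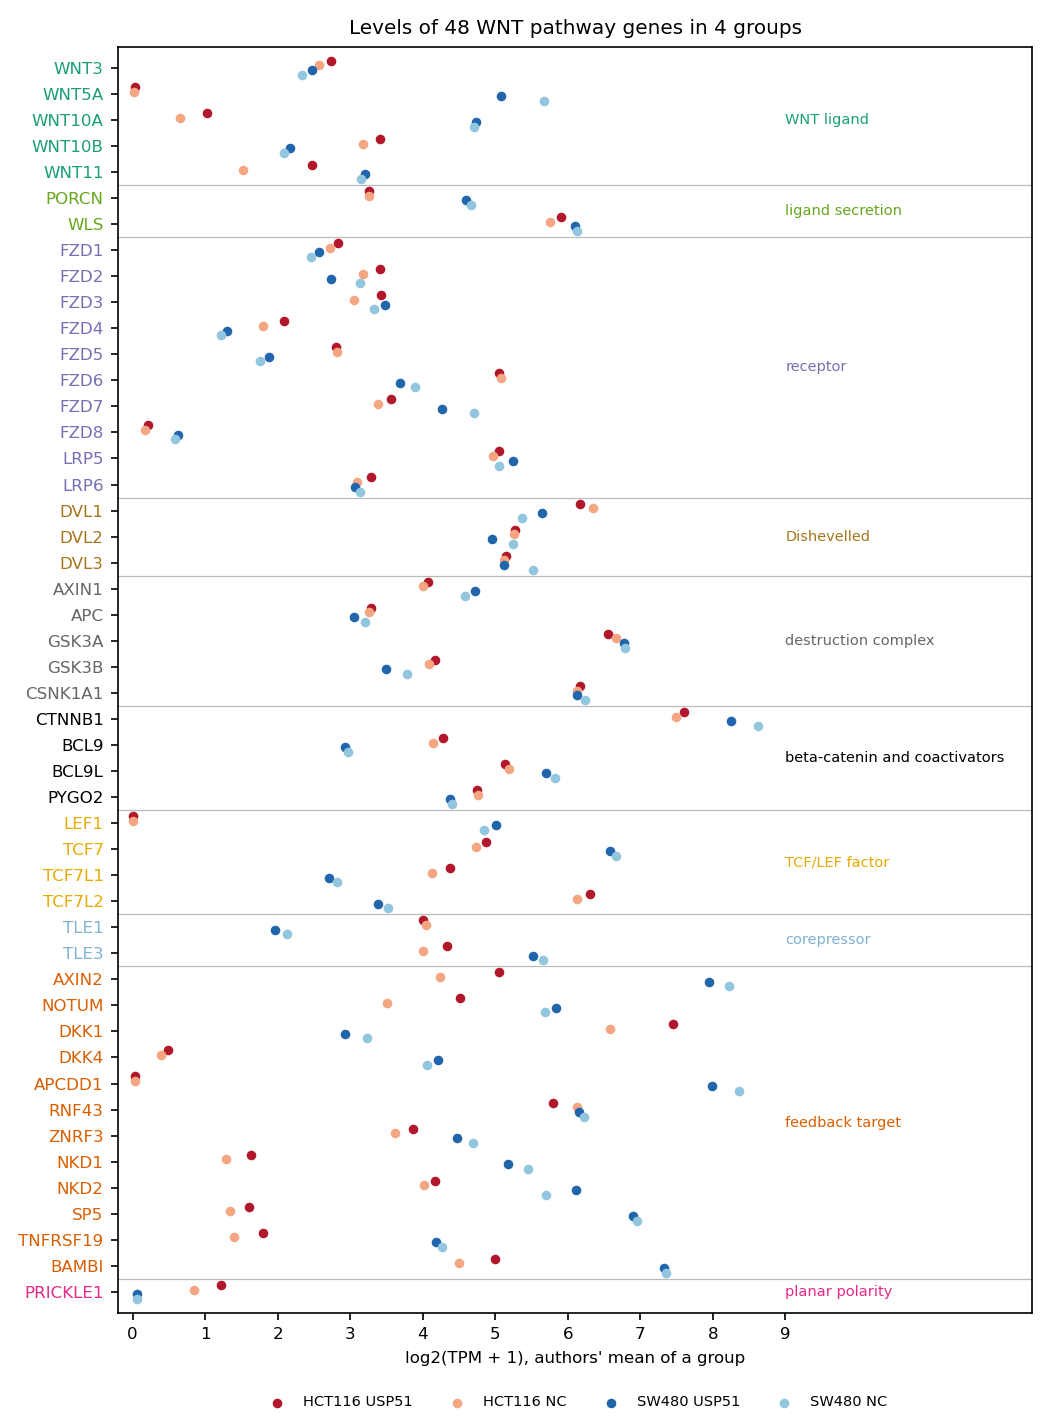
Levels of the 48 genes as log2(TPM + 1), the authors' mean of each of 4 groups (HCT116 USP51, HCT116 NC, SW480 USP51, SW480 NC), with genes grouped by role. For most feedback targets the points of the lines lie farther apart than those of USP51 and NC, and LEF1 lies at 0 in both HCT116 groups.

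In HCT116, 4 of the 43 measured genes were called higher with USP51 and none was called lower. They were NOTUM, DKK1 and AXIN2, all feedback inhibitors of the pathway, and the ligand WNT11. Over all 12393 genes measured in HCT116, 1.96% were called higher and 0.145% lower. By any amount, 34 of the 43 lay above their control and 9 below, with a median log2 difference of 0.16. Among the 34, WNT10A and PRICKLE1 reached 1 TPM only with USP51, so the filter admitted them only as genes above control. Over all genes 60.8% lay above and 39.2% below, with a median of 0.04. The split of the pathway genes depended on scaling, with 30 above and 13 below in CPM with RLE or TMM factors. In FPKM it was 30 above and 11 below. The shares over all genes were counted in TPM alone. With RLE factors the median was 0.12 for the pathway genes and -0.003 over all genes. With TMM factors these were 0.12 and -0.006, and in FPKM 0.11 and 0.009. The counting interval lay above 1 for 18 of the 43 genes and below 1 for 4. Intervals were not computed over all genes, so these counts have no share to be set against. In bulk RNA, a difference in the number of expressing cells and one in RNA per cell cannot be told apart. The 5 genes below 1 TPM in both HCT116 groups were WNT5A, FZD8, LEF1, DKK4 and APCDD1. Just inside the limit was AXIN2 with a log2 difference of 0.81, and just outside it BAMBI with 0.50.

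The feedback targets gave 3 of the 4 calls. NOTUM, an enzyme that removes the lipid WNT proteins need for activity (NCBI gene 147111, chromosome 17, 81952507 to 81961187, GRCh38), stood at 21.8 TPM with USP51 and 10.4 TPM with the control vector. Its counts were 429.7 with USP51 and 212 in NC cells, a ratio of 2.07 (1.75 to 2.45). Its log2 difference of 1.01 was the largest of the 43 genes with a pseudocount of 1 TPM, but with 0.1 TPM that of WNT11 was larger (1.23 for WNT11 and 1.07 for NOTUM). DKK1, a secreted protein that blocks LRP5 and LRP6 (NCBI gene 22943, chromosome 10, 52314281 to 52317657), was at 173 TPM with USP51 and 94.7 TPM with the control vector. Its ratio was 1.80 (1.69 to 1.91), from 2683 counts with USP51 and 1524 in NC cells. It was the most abundant feedback target in both HCT116 groups. AXIN2, a scaffold of the destruction complex that is itself a target (NCBI gene 8313, chromosome 17, 65528563 to 65561648), was at 32.3 TPM with USP51 and 17.9 TPM with the control vector, a ratio of 1.77 (1.61 to 1.94). The lower bounds of these 3 intervals lie above 1.5, while that of WNT11, the remaining call, is 1.49. The genes were called on the same means, so the bounds add no support to the calls.

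The AXIN2 value rests mostly on predicted transcripts. A single one of its 5 transcripts is curated, and it held 5.07% of the AXIN2 TPM in HCT116 with USP51 and 6.43% in HCT116 NC. Each of the 5 was higher with USP51, but on the curated transcript alone the log2 difference was 0.29 and AXIN2 was not called. The pseudocount of 1 TPM understates differences at so low a level, and its part in this value was not tested. NOTUM and DKK1 have 1 transcript each.

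Among the other feedback targets of HCT116, 6 lay above control without being called. BAMBI, a decoy receptor of the TGF-beta family, was at 31.0 TPM with USP51 and 21.6 TPM with the control vector, a ratio of 1.40 (1.21 to 1.63). NKD1, which binds Dishevelled, was at 2.10 TPM with USP51 against 1.45 TPM in NC cells (ratio 1.42, interval 1.21 to 1.68). TNFRSF19, a receptor of the tumour necrosis factor receptor family, was at 2.49 TPM with USP51 against 1.65 TPM in NC cells (ratio 1.52, interval 1.09 to 2.13). All 3 intervals exclude 1. So does that of ZNRF3, a ubiquitin ligase that takes Frizzled receptors off the cell surface, at 13.6 TPM with USP51 against 11.3 TPM in NC cells (ratio 1.17, interval 1.06 to 1.29). The transcription factor gene SP5 rested on 37.7 counts with USP51 and 29.3 in NC cells, at 2.05 TPM with USP51 against 1.53 TPM in NC cells, and its interval includes 1 (ratio 1.34, interval 0.803 to 2.25). The same holds for NKD2, a relative of NKD1, at 16.9 TPM with USP51 against 15.2 TPM in NC cells.

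RNF43 lay on the other side of control. This ubiquitin ligase acts on Frizzled receptors together with ZNRF3. It was at 54.5 TPM with USP51 and 68.9 TPM with the control vector, a ratio of 0.782 (0.740 to 0.825). Its log2 difference of -0.33 was the lowest of the 43 genes. Over the 10 measured feedback targets the median log2 difference was 0.37, with 9 above control. All 12 summed to 350.4 TPM with USP51 and 245 TPM in NC cells. Of these sums DKK1 alone gave 173 TPM with USP51 and 94.7 TPM in NC cells.

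**Figure D2:**
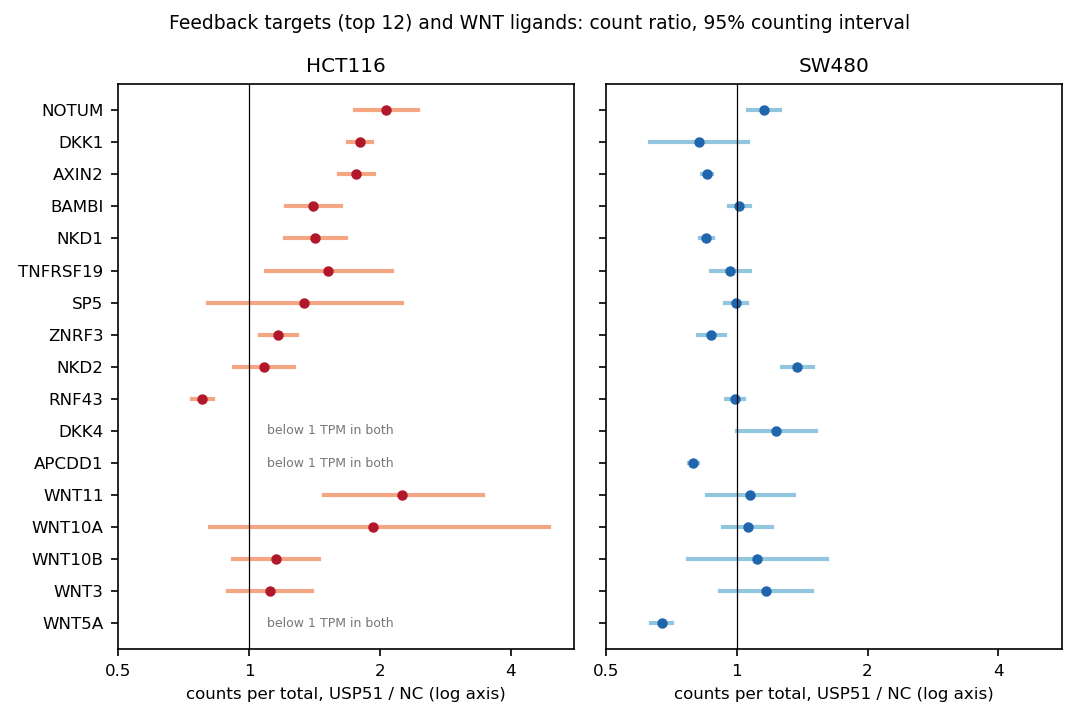
Ratio of estimated counts per total count, USP51 over NC, in HCT116 (left) and SW480 (right) for the 12 feedback targets and 5 WNT ligands. Points are ratios of authors' means on a log axis and bars are exact 95% intervals of counting error. NOTUM, DKK1, AXIN2 and WNT11 lie right of 1 in HCT116, and WNT5A lies left of 1 in SW480 with a ratio of 0.672.

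Promoter windows were searched for the core letters of the motif that TCF and LEF factors bind, and those of DKK1, called in HCT116, and SP5, a textbook direct target, are shown. RefSeq windows on GRCh38.p14, 250 bases before to 50 after a start, were matched for 35 of the 48 genes. AXIN2, NOTUM and WNT11 are among the 13 genes without one. Both genes lie on the plus strand, and capitals mark CTTTGA or its reverse complement TCAAAG.
DKK1, chr10:52314031-52314330 (+): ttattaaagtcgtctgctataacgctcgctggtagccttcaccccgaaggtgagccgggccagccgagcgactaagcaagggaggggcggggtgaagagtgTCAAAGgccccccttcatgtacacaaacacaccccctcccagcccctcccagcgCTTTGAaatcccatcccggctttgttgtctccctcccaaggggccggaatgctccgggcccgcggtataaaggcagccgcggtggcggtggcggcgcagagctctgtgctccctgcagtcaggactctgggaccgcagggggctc
SP5, chr2:170715087-170715386 (+): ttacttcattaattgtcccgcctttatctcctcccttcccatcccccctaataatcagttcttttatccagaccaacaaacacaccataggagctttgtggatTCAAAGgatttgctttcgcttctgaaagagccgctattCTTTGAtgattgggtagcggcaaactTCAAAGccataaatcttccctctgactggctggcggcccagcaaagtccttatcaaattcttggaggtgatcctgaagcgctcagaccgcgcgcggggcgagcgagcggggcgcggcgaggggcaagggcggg
DKK1 held 2 matches, at bases 102 to 107 and 156 to 161 of its window. SP5 held 3, at bases 104 to 109, 142 to 147 and 168 to 173, and the middle one extends to CTTTGAT. On either strand, 4 of the 35 genes held CTTTGA (11.4%), the other two being CSNK1A1 and PORCN. The share over all 27305 genes of the promoter list was 15.5%, so these letters were not more frequent among the pathway genes. CTTTGAT, which contains CTTTGA, was found for 1 of 35 genes (2.86%) and for 3.18% of all genes. A match describes letters only.

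Of the WNT ligands in HCT116, WNT11, which signals mainly without beta-catenin (NCBI gene 7481, chromosome 11, 76186325 to 76210761), was at 4.53 TPM with USP51 and 1.87 TPM with the control vector. This is a ratio of 2.24 (1.49 to 3.45) on 76.7 counts with USP51 and 35 in NC cells, and all 4 of its transcripts were higher. WNT10B, a ligand of the beta-catenin branch, was the most abundant of the 5, at 9.61 TPM with USP51 against 8 TPM in NC cells. WNT3, of the same branch, was at 5.66 TPM with USP51 against 4.96 TPM in NC cells. The intervals of WNT10B and WNT3 include 1, and so does that of WNT10A, at 1.03 TPM with USP51 against 0.577 TPM in NC cells on 16.7 counts with USP51 and 9 in NC cells. PORCN, which attaches the lipid to WNT proteins, was at 8.59 TPM with USP51 against 8.60 TPM in NC cells. WLS, which carries WNT proteins to the cell surface, was at 59.1 TPM with USP51 against 53.0 TPM in NC cells (ratio 1.1, interval 1.02 to 1.19).

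No receptor was called in HCT116. The log2 differences of the 9 measured ones ran between -0.02 and 0.38, with 7 above control. The Frizzled gene FZD3 was at 9.76 TPM with USP51 against 7.28 TPM in NC cells (ratio 1.23, interval 1.08 to 1.40). FZD4 was at 3.25 TPM with USP51 against 2.48 TPM in NC cells (ratio 1.28, interval 1.05 to 1.56). FZD2 was at 9.62 TPM with USP51 against 8.02 TPM in NC cells, with an interval that only just excludes 1 (ratio 1.18, interval 1.0 to 1.38). FZD6 was the most abundant Frizzled gene of HCT116, at 32.2 TPM with USP51 against 32.8 TPM in NC cells, and its interval includes 1. FZD7 was at 10.8 TPM with USP51 against 9.40 TPM in NC cells, with an interval that includes 1. Of the co-receptors, LRP6 was at 8.72 TPM with USP51 against 7.51 TPM in NC cells (ratio 1.14, interval 1.03 to 1.26) and LRP5 at 32.1 TPM with USP51 against 30.2 TPM in NC cells.

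Most signal transducers of HCT116 had small differences. The 5 destruction complex genes had log2 differences between -0.11 and 0.08. APC, the scaffold most often mutated in colorectal cancer, was at 8.81 TPM with USP51 and 8.55 TPM with the control vector (ratio 1.01, interval 0.918 to 1.1). AXIN1, the scaffold that is not a feedback target, was at 15.8 TPM with USP51 against 15.0 TPM in NC cells (ratio 1.03, interval 0.906 to 1.16). The kinase gene GSK3B was at 16.9 TPM with USP51 against 15.9 TPM in NC cells (ratio 1.04, interval 0.961 to 1.13). All 3 intervals include 1. CTNNB1, the beta-catenin gene (NCBI gene 1499, chromosome 3, 41199505 to 41240443), was at 193 TPM with USP51 and 179 TPM with the control vector, a ratio of 1.06 (1.02 to 1.1). Among the Dishevelled genes, which relay the receptor signal, DVL1 was at 71.2 TPM with USP51 against 80.2 TPM in NC cells (ratio 0.868, interval 0.820 to 0.920), whereas the ratios of DVL2 and DVL3 were both 0.991.

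The 3 TCF genes measured in HCT116 all lay above control. TCF7L2, the main TCF factor of the gut, was at 77.8 TPM with USP51 against 69.0 TPM in NC cells (ratio 1.1, interval 1.05 to 1.16). TCF7L1, which often acts as a repressor, was at 19.8 TPM with USP51 against 16.6 TPM in NC cells (ratio 1.19, interval 1.05 to 1.36). TCF7 was at 28.2 TPM with USP51 against 25.6 TPM in NC cells, with an interval that includes 1. None of them was called, although TCF7L1 was on its curated transcript alone (log2 difference 0.66). TLE3, a corepressor that TCF factors recruit, was at 19.2 TPM with USP51 against 15.1 TPM in NC cells (ratio 1.23, interval 1.12 to 1.36). PRICKLE1, of the planar polarity branch, was at 1.33 TPM with USP51 against 0.803 TPM in NC cells on 57.7 counts with USP51 and 35.0 in NC cells.

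In SW480, 1 of the 46 measured genes was called lower with USP51, the ligand WNT5A, and none was called higher. Over all 12175 genes measured in SW480, 0.879% were called lower and 0.534% higher. WNT5A, a ligand that mostly signals without beta-catenin (NCBI gene 7474, chromosome 3, 55465715 to 55505263), stood at 32.8 TPM with USP51 and 49.9 TPM with the control vector. Its counts were 2029 with USP51 and 2962 in NC cells, a ratio of 0.672 (0.635 to 0.712). The log2 difference of -0.59 lies at the limit. WNT5A was not called in FPKM (-0.54), in CPM with RLE factors (-0.55) or TMM factors (-0.56), or on curated transcripts (-0.57). Just outside the limit was FZD7 with -0.44.

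By any amount 31 of the 46 genes lay below control in SW480 and 15 above, with a median log2 difference of -0.07. Over all genes 61.1% lay below and 38.8% above, with a median of -0.04. The split depended on scaling, with 24 below and 23 above in CPM with RLE factors and 26 below and 21 above with TMM factors. The shares over all genes were again counted in TPM alone. With RLE factors the median was -0.0036 for the pathway genes and 0.016 over all genes. With TMM factors these were -0.0095 and 0.010. The counting interval lay below 1 for 15 genes and above 1 for 6, again without a share over all genes. FZD8 and PRICKLE1 were below 1 TPM in both SW480 groups.

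The feedback targets called in HCT116 did not share a direction in the TPM of SW480. NOTUM was at 56.3 TPM with USP51 and 50.3 TPM with the control vector, a ratio of 1.16 (1.06 to 1.26). DKK1 was at 6.64 TPM with USP51 and 8.35 TPM with the control vector, on 112 counts with USP51 and 134 in NC cells, with an interval that includes 1 (ratio 0.820, interval 0.633 to 1.06). AXIN2 was at 246 TPM with USP51 and 297 TPM with the control vector, a ratio of 0.856 (0.834 to 0.879). Each of the 5 AXIN2 transcripts was lower with USP51. APCDD1, a membrane protein that binds WNT and LRP5, was the most abundant feedback target of SW480 (NCBI gene 147495, chromosome 18, 10454635 to 10489949). It was at 253 TPM with USP51 and 327 TPM with the control vector, a ratio of 0.796 (0.775 to 0.816).

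Of the remaining feedback targets in SW480, NKD2 lay farthest above control of all 46 genes. It was at 68.5 TPM with USP51 and 51.1 TPM with the control vector, a ratio of 1.38 (1.27 to 1.5), and 5 of its 6 transcripts were higher. NKD1 was at 35.1 TPM with USP51 against 42.6 TPM in NC cells (ratio 0.852, interval 0.824 to 0.881). ZNRF3 was at 21.1 TPM with USP51 against 24.9 TPM in NC cells (ratio 0.875, interval 0.815 to 0.939). The inhibitors NKD1 and NKD2 thus lay on opposite sides of control in this line. SP5, BAMBI, RNF43, TNFRSF19 and DKK4 had intervals that include 1. The median of the 12 was -0.08, with 9 below control in TPM but 6 in CPM with RLE factors and 7 with TMM factors.

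Among the receptors and transducers of SW480, members of 1 family lay on both sides of control. FZD7, the most abundant Frizzled gene of this line, was at 18.3 TPM with USP51 and 25.2 TPM with the control vector, a ratio of 0.748 (0.677 to 0.825). FZD2 was at 5.63 TPM with USP51 against 7.80 TPM in NC cells (ratio 0.745, interval 0.621 to 0.892). FZD1, FZD3, FZD4 and FZD5 lay above control, with intervals that include 1. LRP5 was at 36.7 TPM with USP51 against 32.1 TPM in NC cells (ratio 1.17, interval 1.09 to 1.25), and the interval of LRP6 includes 1. Of the Dishevelled genes, DVL1 was at 49.0 TPM with USP51 against 40.5 TPM in NC cells (ratio 1.25, interval 1.16 to 1.34). DVL3 was at 33.7 TPM with USP51 against 44.9 TPM in NC cells (ratio 0.773, interval 0.726 to 0.823). DVL2, at 30.1 TPM with USP51 against 36.9 TPM in NC cells (ratio 0.843, interval 0.770 to 0.922), was on the same side as DVL3.

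CTNNB1 was lower in SW480 with USP51, at 304 TPM with USP51 and 392 TPM with the control vector, a ratio of 0.802 (0.782 to 0.823). GSK3B was at 10.2 TPM with USP51 against 12.7 TPM in NC cells (ratio 0.831, interval 0.757 to 0.911). APC, mutant in this line, was at 7.27 TPM with USP51 against 8.21 TPM in NC cells (ratio 0.908, interval 0.825 to 0.999). AXIN1 lay on the other side, at 25.5 TPM with USP51 against 22.9 TPM in NC cells (ratio 1.12, interval 1.02 to 1.23). The TCF and LEF genes had log2 differences between -0.14 and 0.15. The highest was that of LEF1, at 31.1 TPM with USP51 against 27.9 TPM in NC cells (ratio 1.12, interval 1.02 to 1.24). TCF7 was at 94.4 TPM with USP51 against 100.5 TPM in NC cells, with an interval that includes 1. Of the 5 ligands, WNT5A alone had an interval that excludes 1. WNT11, called in HCT116, was at 8.22 TPM with USP51 against 7.87 TPM in NC cells (ratio 1.08, interval 0.854 to 1.36).

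The responses of both lines were set side by side as the log2 difference in HCT116 minus that in SW480, with no test. Of 42 genes measured in both, 7 had a response at least 1.5-fold higher in HCT116 and none a response that much lower. The shares over all 11332 genes measured in both were 3.95% higher and 0.459% lower. The largest differences of response were those of DKK1 (1.16), AXIN2 (1.08), WNT11 (0.89) and NOTUM (0.85). FZD2 (0.64), FZD7 (0.63) and NKD1 (0.61) were just inside the limit, and in FPKM the first 4 alone passed it. DKK1, AXIN2, FZD2, FZD7 and NKD1 lay above control in HCT116 and below it in SW480, while WNT11 and NOTUM lay above control in both. At the other end were DVL1 (-0.44) and NKD2 (-0.27). By any amount, 34 of the 42 genes (81.0%) had the higher response in HCT116 and 8 the lower, against 65% and 35% of all genes. This split was counted in TPM alone, where the median over all genes was 0.04 in HCT116 and -0.04 in SW480. With RLE factors these medians were -0.003 in HCT116 and 0.016 in SW480.

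**Figure D3:**
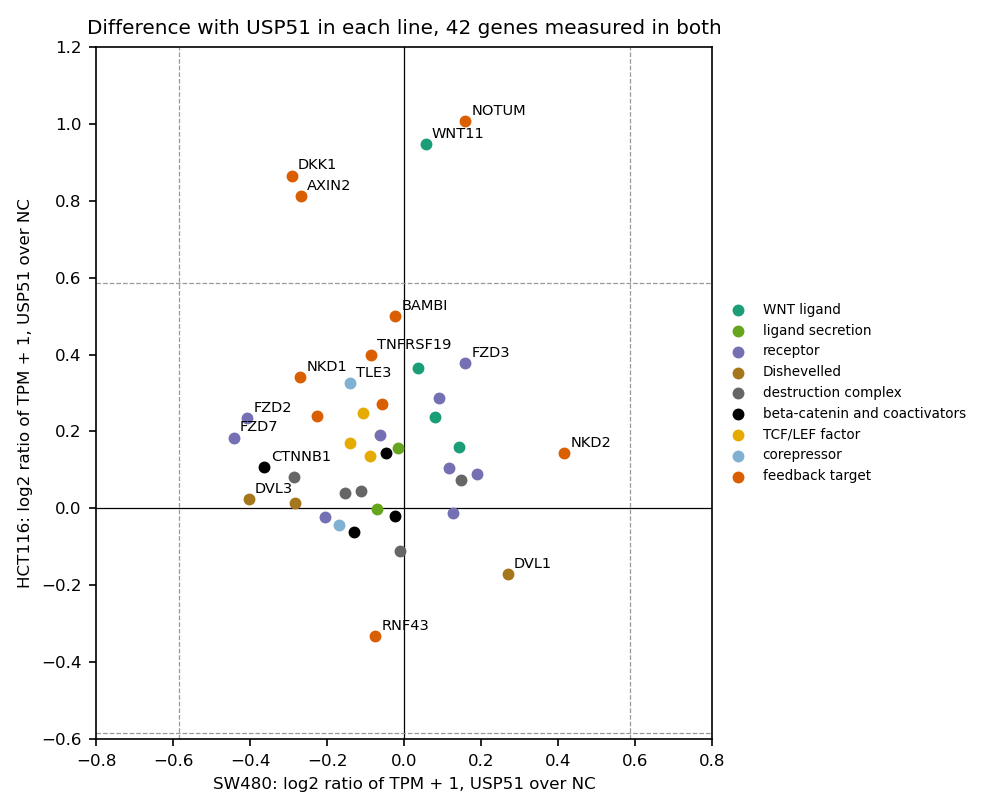
Log2 ratio of TPM + 1, USP51 over NC, in HCT116 (vertical) and SW480 (horizontal) for the 42 genes measured in both lines, coloured by role. Dashed lines mark 1.5-fold. NOTUM, WNT11, DKK1 and AXIN2 lie above the upper line, no gene lies beyond a vertical one, and WNT5A is not drawn because it was below 1 TPM in HCT116.

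The control groups show how far apart the lines were without the USP51 construct. Of 46 measured genes, 8 were higher in HCT116 NC than in SW480 NC by 2-fold or more and 19 were lower by as much. Over all 13033 genes the shares were 14.7% higher and 13.4% lower. By any amount, 17 lay above and 29 below, against 53.3% and 46.7% of all genes.

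Of the 12 feedback targets 10 were called lower in HCT116, and their median log2 difference was -2.86. The largest difference was that of APCDD1, at 0.0267 TPM in HCT116 NC and 327 TPM in SW480 NC. Its mean was 1 count in HCT116 NC and 12848 counts in SW480 NC (ratio 7.69e-05, interval 1.95e-06 to 0.000428). SP5 was at 1.53 TPM in HCT116 NC and 123 TPM in SW480 NC, a ratio of 0.0118 (0.00792 to 0.0171). AXIN2, called higher with USP51 in HCT116, had a far lower level in that line. It was at 17.9 TPM in HCT116 NC and 297 TPM in SW480 NC, a ratio of 0.0602 (0.0558 to 0.0648). NKD1 was at 1.45 TPM in HCT116 NC against 42.6 TPM in SW480 NC (ratio 0.0338, interval 0.0297 to 0.0382). DKK4, a relative of DKK1, was at 0.317 TPM in HCT116 NC against 15.6 TPM in SW480 NC, on 3 counts in HCT116 NC (ratio 0.0182, interval 0.00371 to 0.0541). The other 5 called lower were TNFRSF19, BAMBI, NOTUM, NKD2 and ZNRF3, with ratios between 0.0844 and 0.454.

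The feedback targets that were not called lower are DKK1 and RNF43. DKK1 was called higher, at 94.7 TPM in HCT116 NC and 8.35 TPM in SW480 NC, a ratio of 11.2 (9.41 to 13.5). RNF43 was at 68.9 TPM in HCT116 NC and 74.0 TPM in SW480 NC, a ratio of 0.923 (0.878 to 0.970). The 12 genes summed to 245 TPM in HCT116 NC and 1195 TPM in SW480 NC. DKK1 made up 38.6% of the sum in HCT116 NC and 0.699% in SW480 NC. In SW480 NC the largest shares were those of APCDD1 with 27.4% and AXIN2 with 24.8%.

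**Figure D4:**
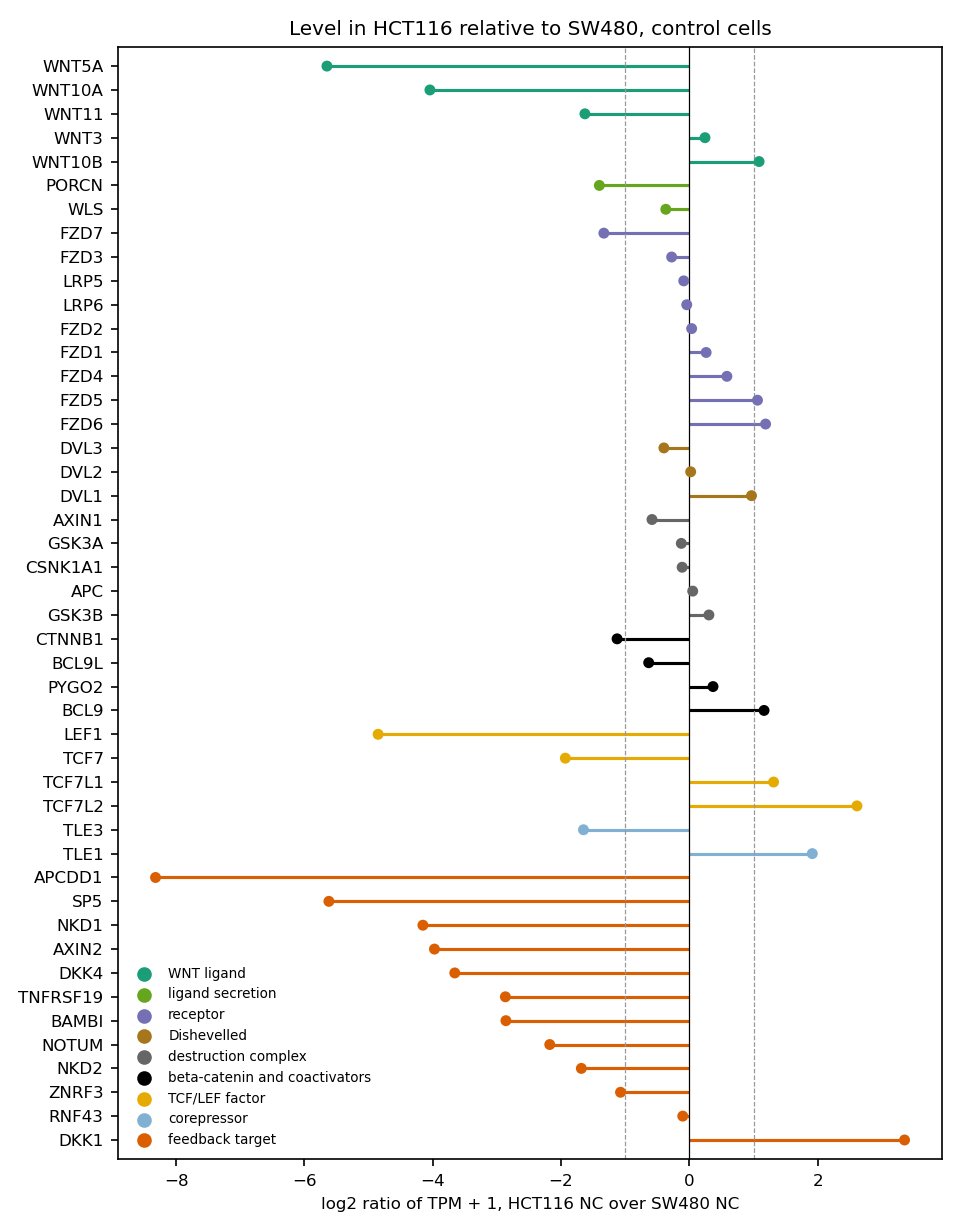
Log2 ratio of TPM + 1, HCT116 NC over SW480 NC, for the 46 genes with at least 1 TPM in either group, ordered within each role. Dashed lines mark 2-fold. Destruction complex genes lie within 2-fold, all feedback targets but DKK1 and RNF43 lie left of the lower line, and DKK1 and TCF7L2 lie farthest right.

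The TCF and LEF genes, which encode the DNA-binding partners of beta-catenin, made up different mixtures in the lines. In HCT116 NC, TCF7L2 held 62.1% of the summed TPM of the 4 genes, TCF7 23.0%, TCF7L1 14.9% and LEF1 0%. In SW480 NC, TCF7 held 69.4%, LEF1 19.2%, TCF7L2 7.21% and TCF7L1 4.19%. The sums were 111 TPM in HCT116 NC and 145 TPM in SW480 NC, so the mixtures differed more than the totals.

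TCF7L2 (NCBI gene 6934, chromosome 10, 112950247 to 113167678) reached 69.0 TPM in HCT116 NC and 10.4 TPM in SW480 NC, a ratio of 6.58 (5.92 to 7.31). TCF7L1 was also called higher in HCT116, at 16.6 TPM in HCT116 NC against 6.07 TPM in SW480 NC (ratio 2.70, interval 2.25 to 3.26). TCF7 (NCBI gene 6932, chromosome 5, 134108218 to 134148210) was called lower, at 25.6 TPM in HCT116 NC and 100.5 TPM in SW480 NC, a ratio of 0.251 (0.232 to 0.272). LEF1 (NCBI gene 51176, chromosome 4, 108047548 to 108168932) had 0 counts in both HCT116 means and 806 counts in SW480 NC, at 27.9 TPM. At a floor of 3 counts in the HCT116 NC mean its ratio was 0.00368, and the upper bound of the exact interval was 0.00453. The leading shares differed little with USP51, TCF7L2 holding 61.8% in HCT116, and TCF7 67.2% and LEF1 22.2% in SW480. The corepressor genes were split between the lines as well. TLE1 was at 15.5 TPM in HCT116 NC against 3.38 TPM in SW480 NC (ratio 4.50, interval 3.71 to 5.50), and TLE3 at 15.1 TPM in HCT116 NC against 49.5 TPM in SW480 NC (ratio 0.304, interval 0.280 to 0.330).

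**Figure D5:**
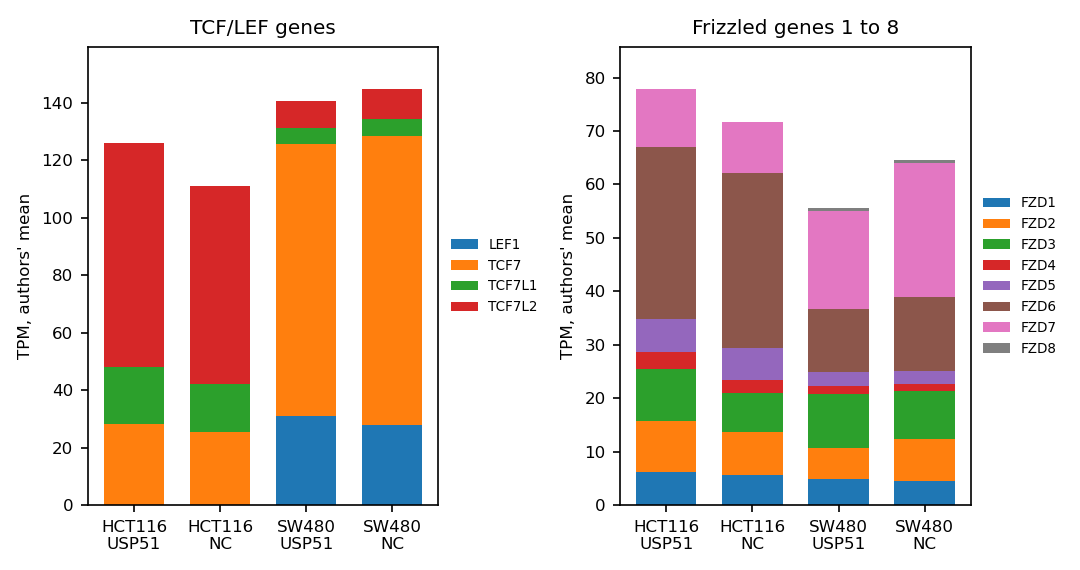
Summed TPM of the TCF/LEF genes (left) and of Frizzled genes 1 to 8 (right) in HCT116 USP51, HCT116 NC, SW480 USP51 and SW480 NC, each bar divided by gene. TCF7L2 and FZD6 are the largest segments in HCT116, and TCF7 and FZD7 in SW480.

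Ligand and receptor genes differed by line too. WNT5A was at 0.0133 TPM in HCT116 NC and 49.9 TPM in SW480 NC. WNT10A was at 0.577 TPM in HCT116 NC against 25.0 TPM in SW480 NC (ratio 0.0193, interval 0.00878 to 0.0370). WNT11 was called lower in HCT116 too, at 1.87 TPM in HCT116 NC against 7.87 TPM in SW480 NC (ratio 0.237, interval 0.159 to 0.344). WNT10B, on the other side, was at 8 TPM in HCT116 NC against 3.24 TPM in SW480 NC (ratio 2.49, interval 1.82 to 3.43). The 5 ligands of the set summed to 15.4 TPM in HCT116 NC and 90.0 TPM in SW480 NC. The most abundant ligand of neither line was among them. With the 14 further ligands of the table the sums were 88.2 TPM in HCT116 NC and 184.7 TPM in SW480 NC, and the most abundant were WNT16 in HCT116 NC (64.4% of the sum) and WNT6 in SW480 NC (45.7%). WNT16 was at 56.8 TPM in HCT116 NC against 1.92 TPM in SW480 NC, and WNT6 at 1.58 TPM in HCT116 NC against 84.4 TPM in SW480 NC. Of the sum over all 19, WNT10B held 9.07% in HCT116 NC and 1.75% in SW480 NC, and WNT5A held 27.0% in SW480 NC. PORCN was called lower in HCT116, at 8.60 TPM in HCT116 NC against 24.4 TPM in SW480 NC.

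Frizzled genes summed to 71.7 TPM in HCT116 NC and 64.6 TPM in SW480 NC. FZD6 was called higher in HCT116, at 32.8 TPM in HCT116 NC against 13.8 TPM in SW480 NC (ratio 2.37, interval 2.13 to 2.64). It led in HCT116 NC with 45.7% of the sum and FZD7 in SW480 NC with 39.0%. FZD5 was called higher as well, at 6.06 TPM in HCT116 NC against 2.38 TPM in SW480 NC. FZD7 was called lower, at 9.40 TPM in HCT116 NC against 25.2 TPM in SW480 NC (ratio 0.371, interval 0.328 to 0.420). The direction of FZD3 depended on the unit, with 7.28 TPM in HCT116 NC against 9.02 TPM in SW480 NC but a count ratio of 1.42 (1.22 to 1.65). The intervals of LRP5 and LRP6 include 1.

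Of the 5 destruction complex genes that are not feedback targets, none was called between the lines. APC was at 8.55 TPM in HCT116 NC and 8.21 TPM in SW480 NC, a ratio of 1.03 (0.943 to 1.14). GSK3B was at 15.9 TPM in HCT116 NC against 12.7 TPM in SW480 NC (ratio 1.25, interval 1.14 to 1.35). AXIN1 was at 15.0 TPM in HCT116 NC against 22.9 TPM in SW480 NC (ratio 0.633, interval 0.565 to 0.708). These are RNA levels and say nothing of the mutant protein that the APC gene of SW480 encodes. CTNNB1, the mutant gene of HCT116, was called lower there, at 179 TPM in HCT116 NC and 392 TPM in SW480 NC, a ratio of 0.448 (0.434 to 0.462). Of the coactivators, BCL9, which bridges beta-catenin to PYGO proteins, was called higher in HCT116, at 16.6 TPM in HCT116 NC against 6.86 TPM in SW480 NC (ratio 2.41, interval 2.15 to 2.71). A single one of the 5 BCL9 transcripts is curated. It held 1.40% of the BCL9 TPM in HCT116 NC and 11.1% in SW480 NC. On it alone BCL9 was below 1 TPM in both control groups and so not measured, with the lower level in HCT116 NC. Its relative BCL9L was at 35.6 TPM in HCT116 NC against 55.8 TPM in SW480 NC (ratio 0.630, interval 0.60 to 0.662), and PYGO2, which joins the same complex, at 26.2 TPM in HCT116 NC against 20.1 TPM in SW480 NC.

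A list of 89 further WNT genes, of which 84 were found, gave the wider pathway. In HCT116, 2 of 55 measured were called higher with USP51 and none lower, against 1.96% and 0.145% of all genes. In SW480 1 of 59 was called higher and none lower, against 0.534% and 0.879% of all genes. The HCT116 calls were ligands. WNT6 was at 4.11 TPM with USP51 and 1.58 TPM with the control vector (ratio 2.55, interval 1.57 to 4.28), and WNT7B at 9.21 TPM with USP51 and 4.84 TPM with the control vector (ratio 1.86, interval 1.55 to 2.24). The SW480 call was a ligand as well, WNT5B at 4.41 TPM with USP51 and 2.38 TPM with the control vector (ratio 1.90, interval 1.34 to 2.73). MYC, a growth regulator gene and target of the pathway, was just outside the limit in SW480, at 233 TPM with USP51 and 156 TPM with the control vector, a ratio of 1.54 (1.49 to 1.59). In HCT116, WNT16 was just outside on the lower side, at 37.6 TPM with USP51 and 56.8 TPM with the control vector, and EPHB3, a receptor of crypt cells and a target, on the higher side, at 6.65 TPM with USP51 and 4.12 TPM with the control vector. The median log2 difference of the list was 0.10 in HCT116 (0.04 over all genes) and -0.05 in SW480 (-0.04 over all genes). Between the controls, 10 of 61 were called higher in HCT116 and 17 lower, against 14.7% and 13.4% of all genes. Among the 10 were TNKS, which marks AXIN proteins for degradation (ratio 3.34, interval 2.98 to 3.76), and BTRC, the ubiquitin ligase subunit that recognises beta-catenin (ratio 2.62, interval 2.29 to 3.01).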

How the data were processed

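The labels' protocols name TRIzol for the extraction of RNA and BGISEQ500 for sequencing. TopHat, DESeq 1.32.0 and hg38 are named in the submitters' processing notes without roles, and the quantifier is not given in the sources used here. Nor is its use of strand, so overlapping genes cannot be told apart. The deposited table has 84345 RefSeq transcripts (44726 curated) and, per the file headers, gives the authors' means per group as estimated counts, TPM values and FPKM values. Its 36 single-library columns could be tied to no label and were left out, so the edgeR test planned for that case was not run. Transcripts were summed per gene and named with the RefSeq table of GRCh38.p14 (17672 of 17818 identifiers had a symbol). Log2 ratios used a pseudocount of 1 TPM. Intervals are exact Clopper-Pearson, conditional on the sum, on means rounded to whole counts (SciPy 1.17.1). RLE and TMM factors came from edgeR 4.0.16 (R 4.3.3). Calls and intervals were tried on simulated counts drawn with counting error alone, which does not cover variation between replicates. Members, roles and lists were chosen with earlier results of these data known. By rule, values are printed, though not in every group, for genes called with USP51 and those nearest the size limit. The rule also covers the TCF/LEF genes, CTNNB1, APC, AXIN1, GSK3B and the 5 genes farthest apart between lines per direction. Other genes with values, those of the wider list not called with USP51 among them, were chosen once values were known.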

Additional observations from a re-analysis of the deposited data

How the results depend on the processing

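The counts of called genes among the 48 and their medians with USP51 were recomputed with a pseudocount of 0.1 TPM, FPKM, CPM with RLE or TMM factors, no filter, a filter on the mean of the 2 groups, curated transcripts alone and, for the counts, another size rule. Counts of intervals and values of the wider list were not recomputed. Of 78 recomputed values 70 stayed within 1.5 times the count, or within 0.1 of the median. The SW480 median of -0.07 is smaller than that margin, so its loss would still have counted as unchanged. It was -0.03 in FPKM, -0.0036 in CPM with RLE factors and -0.0095 with TMM factors. No called gene changed sign in the settings where it passed the filter. On curated transcripts BCL9 did not pass it between the control groups, so its sign was not compared there. At 2-fold, 1 gene was called higher in HCT116 with USP51 (NOTUM), 0 lower in SW480, and 2 had the higher response in HCT116 (DKK1 and AXIN2). The SW480 call of WNT5A was also lost (0 called) in FPKM, under both CPM scalings and on curated transcripts, and in FPKM the higher responses numbered 4. The count of 4 for HCT116 held on curated transcripts with TCF7L1 (log2 difference 0.66) in place of AXIN2 (0.29), and that of 7 higher responses with TCF7L1 and ZNRF3 in place of AXIN2 and NKD1. With a pseudocount of 0.1 the count called higher in HCT116 was 6, with PRICKLE1 and WNT10A added, both on fewer than 60 counts. Both reached 1 TPM only with USP51, so the filter admitted them only as genes above control. The higher responses then numbered 9, with TNFRSF19 and WNT10A added. The causes of these changes were not tested, apart from the stricter size rule, which by construction calls fewer genes. Among 937 recomputed differences of single genes, 58 moved by more than the mean distance from their ratio to its bounds. Leaving out replicates was not run, as the means hold no single libraries. No paired analysis was possible because the single-library columns carry codes that match no label or replicate number. Genes with few counts, such as SP5, WNT10A and DKK4 in HCT116, have intervals too wide to show differences of the size seen elsewhere.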
